A study of Mus musculus with 39 samples.

Results

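The genes described here are 43 heat shock and unfolded protein chaperones, out of 55401 genes counted in the series, followed through sorted mouse astrocytes after chronic social defeat stress. They were chosen by name, as the rows whose Ensembl identifier belongs to one of the listed symbols in GENCODE release M21, and no measured value entered the choice. By the place where the protein works, 23 belong to the cytosol and nucleus, 3 to mitochondria and 17 to the endoplasmic reticulum. The study measured RNA in 39 libraries of astrocytes that were isolated from brain punches on magnetic beads by their surface antigen ACSA-2, which marks astrocytes. All donors were male mice, either unstressed controls or mice that had been repeatedly defeated by an aggressor and were then classed by social behaviour as susceptible or resilient. The nucleus accumbens (NAc), a reward centre of the ventral striatum, gave 7 control, 8 susceptible and 7 resilient libraries. The tissue labelled PFC gave 6 control, 6 susceptible and 5 resilient libraries. The labels give neither strain nor age, and their protocol text names NAc tissue for all libraries, the 17 labelled PFC included. No transgene or drug is named for any group. The labels give each library a mouse number of its own. Where an odd number and the next even one are both present (16 pairs), they are a PFC and a NAc library of the same condition. Whether such a pair came from 1 animal is not settled by the labels.

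Chaperones bind unfolded stretches of other proteins and keep them from aggregating until they fold. In the cytosol, HSP70 proteins work with J-domain partners that stimulate their ATPase, HSP90 proteins finish the folding of kinases and hormone receptors, and small heat shock proteins hold unfolded clients. HSF1, the heat shock factor, switches on their genes when unfolded protein accumulates. The reticulum has its own set (BiP, GRP94, calreticulin, calnexin and the disulfide isomerases), which the unfolded protein response raises through the sensors IRE1, ATF6 and PERK. In brain, glial cells are known for the small heat shock protein alpha-B crystallin.

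Library totals ran from 941450 to 37339379 counts, with a median of 11264270. Counts cover introns as well as exons, and part of each library lies evenly over genes that should be silent. That background was measured on 1479 odorant, pheromone and trace-amine receptor genes and is given as background cover, their FPKM (fragments per kilobase of gene, scaled to the library total) as a percent of an even spread of all counts over genes. Background cover ran from 13.4% to 81.1% with a median of 58.2%. It lay under 40% in 6 libraries, which are NAc control 3 (35.7%), PFC control 1 (36.8%) and 2 (21.7%), PFC susceptible 1 (13.4%) and PFC resilient 1 (24.6%) and 2 (19.03%). The 5 PFC libraries among them hold the 5 highest Hspa8 values of the series, so PFC results are given with and without them. The labelled cell type was checked on 7 lists of cell type markers, and the 8 astrocyte markers gave the highest summed CPM (counts scaled to a common library total) in 39 of 39 libraries. Oligodendrocyte and neuron markers had counts too, with sums of 8 genes between 373 and 4080 CPM for the first and between 701 and 4349 CPM for the second. The sums are not scaled to gene length, and the lists hold 4 to 8 genes each. No background was set beside the sums, so its share in them is not known.

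Per unit of gene length, cytosolic HSP90 and HSP70 and the reticulum lectin calreticulin led the 43 genes. Mean FPKM over the 39 libraries was 26.9 for Hsp90ab1, the constitutive HSP90, 16.8 for Hspa8, the constitutive HSP70 known as HSC70, and 14.1 for Calr, which encodes calreticulin. Hspa5, which encodes the reticulum HSP70 BiP, followed at 9.53 FPKM, Hspa2 at 8.91 FPKM and Hsp90aa1, the inducible HSP90, at 6.96 FPKM. The mean receptor background was 0.410 FPKM on the same scale. Of the 43 genes, 37 lay above 2 times that background, and the other 6 were Hsf2, Atf6, Ern1, Hspa1b, Manf and Hspa1a. Hspa1a, the classical stress-inducible HSP70, stood at 0.418 FPKM, 1.02 times background, and below the background of its own library in 24 of 39 libraries. Its copy Hspa1b stood at 0.644 FPKM, below background in 13 libraries. The pair are uncertain as separate genes, since 58.8% of the 50-base windows of the Hspa1a transcript also occur in Hspa1b. Their levels are uncertain too, because how reads matching both were counted was not checked. If such reads were left out, both genes stand too low here. Reads over long introns count fully here, which matters for Atf6 (exons make up 5.66% of its 163098 bases) and Ern1 (8.77% of 93203 bases). Hspa2 and Hspb1 are mostly exon, at 95.7% and 62.7% of their length.

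**Figure D1:**
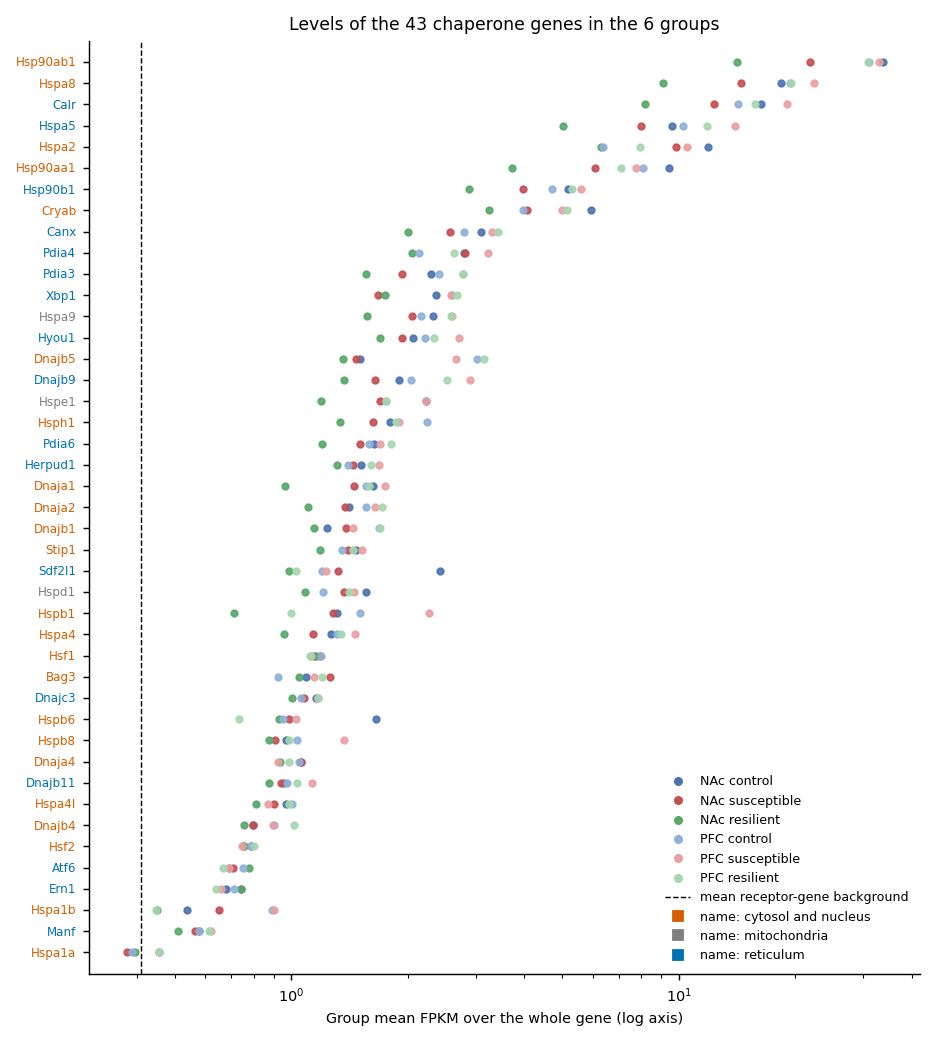
Mean FPKM per group (log axis, 1 dot per group) of the 43 genes, ordered by their mean over all libraries and with names coloured by compartment. The dashed line is the mean background of the receptor genes (0.410 FPKM), which Hspa1a meets at the bottom, while Hsp90ab1 and Hspa8 lie at the top and the NAc resilient group is the leftmost dot for most of the abundant genes.

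In NAc, the chaperones of resilient mice stood below those of controls by value in both compartments, but none passed the test. Among the genes given below, cytosolic HSP90, HSC70 and Hspb1 had the largest differences, with Calr, Hspa5 and Cryab close to Hspb1. The quasi-likelihood test of edgeR called 0 of the 43 genes at an adjusted p under 0.05, where it called 0 of all 35943 genes tested (0%). The log2 fold change was below 0 for 41 of 43 genes (all 23 cytosolic, all 3 mitochondrial and 15 of 17 reticulum genes), with a median of -0.44 and a range from -1.37 to 0.07. Among the 11880 genes above 2 times background, 75.6% were below 0 and the median was -0.17. At an unadjusted p under 0.05 stood 15 of the 43 genes, all lower, against a share of 4.31% lower in all genes tested. That share is over all 35943 genes, of which 11880 lay above 2 times background, where 37 of the 43 members did. In either direction, DESeq2 gave 22, limma-voom 29 and limma-trend 21 genes at that p, and all of them called 0 after adjustment. In bulk RNA, fewer cells of a type and less of a transcript per cell cannot be told apart.

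Hsp90aa1 in NAc controls had a lowest value of 30.8, a median of 107 and a highest value of 273 CPM. Resilient libraries had 23.8, 34.2 and 94.9 CPM, and susceptible ones 38.3, 71.4 and 109 CPM. The groups overlap, with NAc control 3 far above all others and the resilient libraries crowded at the low end. The log2 fold change of resilient over control mice was -1.37 ± 0.42 (SE, adjusted p = 0.756, edgeR), and without NAc control 3 it was -1.03. Its partner Hsp90ab1 (chr17:45567775-45573271 in mm10) gave -1.27 ± 0.52. Hspa8 (chr9:40800984-40810087) had medians of 147 CPM in controls, 119 CPM in susceptible and 52.2 CPM in resilient mice, with resilient libraries from 36.4 to 191 CPM and controls from 72.8 to 281 CPM. Of the 7 resilient libraries, 4 lay under every control. Hspa8 thus gave -1.07 ± 0.40 (adjusted p = 0.756). Hspa8 also overlaps 3 small nucleolar RNA genes in its introns, and reads of these cannot be separated from it.

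Dnaja1, an abundant J-domain partner of HSP70, had the smallest p of the set in this comparison. Controls ran from 17.5 over a median of 23.3 to 36.5 CPM, susceptible libraries from 13.03 over 18.5 to 29.5 CPM and resilient libraries from 7.41 over 14.1 to 18.3 CPM. Only the highest resilient library reached into the control range. The log2 fold change of resilient over control mice was -0.80 ± 0.21 with an unadjusted p of 0.000854 and an adjusted p of 0.756 (edgeR). Dnaja1 (chr4:40722150-40737149, plus strand) overlaps the protein-coding gene Smu1 and the noncoding Gm6297 on the opposite strand, and Mir207 on its own. The strand setting of the counting is not given in the sources used here, so part of its counts may belong to those genes. Hspa4, a nucleotide exchange factor of the HSP110 type, gave -0.46 ± 0.17, and its relatives Hsph1 and Hspa4l gave -0.44 ± 0.17 and -0.36 ± 0.17. Other J-domain genes lay closer to 0, with -0.26 ± 0.24 for Dnajb1 and -0.14 ± 0.19 for Dnajb4.

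Hspb1, the small heat shock protein HSP27 (chr5:135887919-135889563), ran from 1.57 over a median of 2.15 to 2.74 CPM in NAc controls. Susceptible libraries had 1.30, 2.08 and 2.84 CPM and resilient libraries 0.499, 0.909 and 1.85 CPM. Of the resilient libraries, 5 of 7 lie under the lowest control, but these are few reads, with a median count of 24 per library over the series. Hspb1 gave a log2 fold change of -1.01 ± 0.29 for resilient against control mice (adjusted p = 0.756) and 0.91 ± 0.28 for susceptible against resilient mice (unadjusted p = 0.00279, adjusted p = 0.998, edgeR). Cryab, alpha-B crystallin, gave -0.97 ± 0.39 in resilient mice, with medians of 25.8 CPM in controls and 16.7 CPM in resilient mice. It overlaps Hspb2 on the opposite strand. Hspb8 and its partner Bag3, which together route misfolded protein to autophagy, gave -0.21 ± 0.12 and -0.16 ± 0.13. Hsf1, the master regulator of these genes, was nearly level, with medians of 25.8 CPM in controls, 26.6 CPM in susceptible and 27.5 CPM in resilient mice and a log2 fold change of -0.05 ± 0.13 for resilient mice. Hspa1a and Hspa1b gave -0.35 ± 0.30 and -0.50 ± 0.37 at levels near background.

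In the reticulum of resilient NAc astrocytes, 15 of 17 genes were below 0 by value (median -0.47 on the log2 scale), and 0 of 17 passed the test. Hspa5 (chr2:34771970-34777547), the BiP gene, had 30.6, 52.3 and 79.0 CPM as lowest, median and highest control and 13.8, 21.3 and 61.9 CPM in resilient libraries. Susceptible libraries lay between, at 19.2, 42.5 and 69.3 CPM. All 3 groups overlap, and 5 of 7 resilient libraries lie under the lowest control. Hspa5 gave -0.97 ± 0.35 (unadjusted p = 0.0119, adjusted p = 0.756). Hsp90b1, which encodes GRP94, gave -0.87 ± 0.38, with medians of 62.7 CPM in controls and 29.3 CPM in resilient mice. Calr gave -0.98 ± 0.51 with medians of 51.7 and 25.1 CPM. Sdf2l1, a partner of the BiP cycle, gave -0.79 ± 0.31. Its value was 19.4 CPM in NAc control 3, the library with the least counts, and 1.62 to 4.10 CPM in the other 6 controls, and without that library it gave -0.51. Dnajb9, a reticulum J-domain protein that holds IRE1 inactive, gave -0.65 ± 0.31. The sensor genes Atf6 and Ern1, the IRE1 gene, gave 0.07 ± 0.08 and 0.02 ± 0.12. Receptor background equals 57.3% and 58.6% of their mean FPKM, so a change in their own transcripts would show only in part. The gene of PERK is not among the members. Atf6 medians were 109, 109.7 and 116 CPM in control, susceptible and resilient mice. The mitochondrial HSP60 and HSP10 genes Hspd1 and Hspe1 gave -0.56 ± 0.25 and -0.72 ± 0.30. They share a divergent start and overlap each other on opposite strands, so they are not fully separate measurements. Hspa9, the mitochondrial HSP70 mortalin, gave -0.58 ± 0.31. The remaining members lay between, such as Stip1, the HSP70 to HSP90 adaptor HOP, at -0.33 ± 0.17, Canx, the calnexin gene, at -0.66 ± 0.34, Manf at -0.24 ± 0.13 and Herpud1 at -0.30 ± 0.20.

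**Figure D2:**
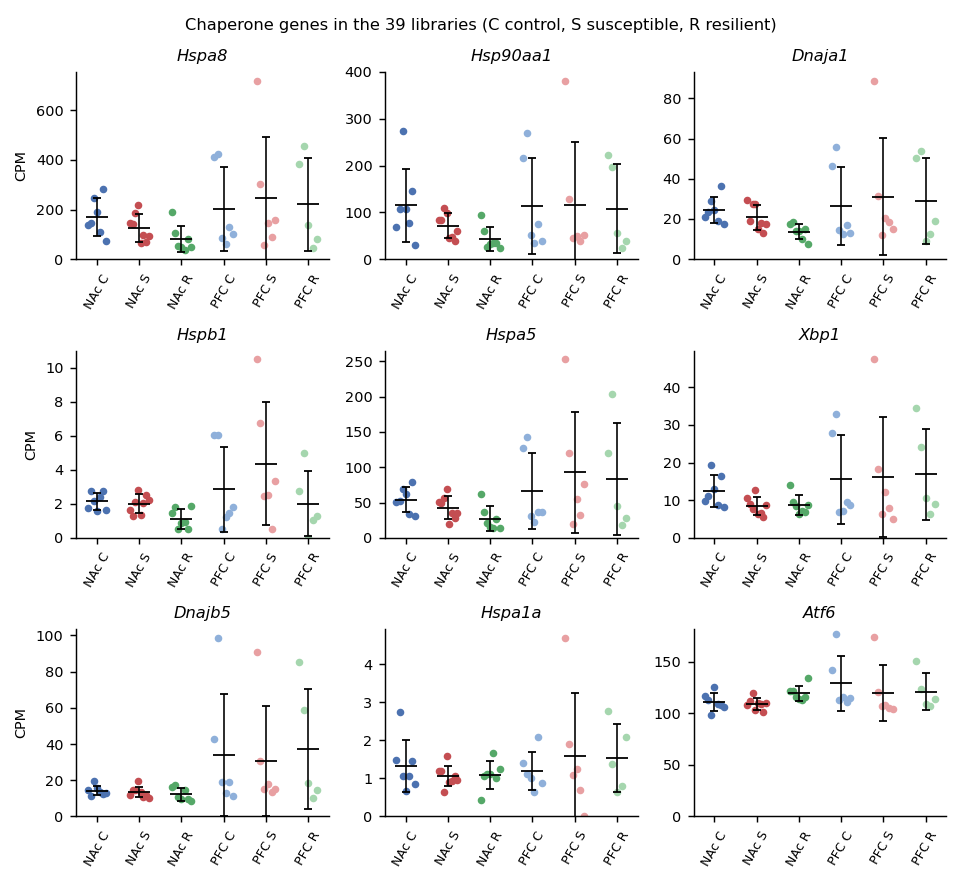
CPM of 9 chaperone genes in the 39 libraries (1 dot each) with the mean and SD of each group, where SD bars that would pass below 0 end at the axis. Resilient NAc libraries lie low for Hspa8, Hsp90aa1, Dnaja1, Hspb1 and Hspa5 within ranges that overlap controls, and the PFC libraries of low background cover lie above the other PFC libraries for Hspa8, Hsp90aa1 and Hspa5.

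The count of 15 genes at an unadjusted p under 0.05 depended on single libraries. It was 9 without NAc control 6, 24 without NAc control 5 and 32 without NAc resilient 1. It was 12 without NAc control 3, the library with the least counts and the only NAc one with a background cover under 40%, where 42 of 43 genes were below 0 with a median of -0.38. With background cover as a covariate 38 of 43 were below 0, the median was -0.17 and 4 stood at an unadjusted p under 0.05. Background cover itself was 53.2% ± 9.25 (SD, n = 7) in NAc controls and 64.6% ± 10.5 (SD, n = 7) in resilient mice. Oligodendrocyte markers moved in the same direction, with 8 of 8 below 0 and a median of -1.18, and sums from 639 to 4080 CPM in controls and from 476 to 1890 CPM in resilient mice. Astrocyte markers were below 0 in 7 of 8 with a median of -0.60, with sums from 2821 to 8590 CPM in controls and from 1235 to 8282 CPM in resilient mice. None of the 16 markers passed the test, and their part in the chaperone result was not tested.

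Susceptible NAc astrocytes stood nearer to controls. The test called 0 of 43 genes (0% of all genes tested), 40 of 43 were below 0 with a median of -0.17, and the genes above background had a median of -0.06 with 62.3% below 0. Oligodendrocyte markers were below 0 in 8 of 8 (median -0.90, 4 at an unadjusted p under 0.05) and astrocyte markers in 7 of 8 (median -0.21). None of these markers passed the test, and their part in the chaperone values was not tested. Xbp1, the transcription factor that IRE1 splices, was the only gene at an unadjusted p under 0.05, against 1.55% lower in all genes, and DESeq2 and limma-voom also gave 1, in either direction. That count was 0 without NAc control 3, 4 or 6 or NAc susceptible 5, 6 or 7, 2 without NAc susceptible 3 and 3 without NAc control 7. Its CPM ran from 8.07 over a median of 11.1 to 19.4 in controls, from 5.50 over 8.197 to 12.8 in susceptible and from 6.21 over 8.49 to 13.9 in resilient mice. Both stressed groups have their medians near the lowest control, and ranges overlap. The log2 fold change was -0.48 ± 0.21 for susceptible (unadjusted p = 0.0311, adjusted p = 1.00, edgeR) and -0.44 ± 0.22 for resilient mice against the same controls. Spliced and unspliced Xbp1 are not told apart by gene counts. In the reticulum Sdf2l1 gave -0.45 ± 0.30, Hsp90b1 -0.42 ± 0.36 and Dnajb9 -0.36 ± 0.30. In the cytosol Cryab gave -0.65 ± 0.37, Hspb8 -0.15 ± 0.11, Hsp90ab1 -0.67 ± 0.49 and Hsp90aa1 -0.67 ± 0.40. Without NAc control 3 the HSP90 values were -0.17 for Hsp90ab1 and -0.33 for Hsp90aa1, and those of the reticulum -0.17 for Sdf2l1 and -0.22 for Hsp90b1, so the size of these differences depends on that library.

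Set against resilient mice, susceptible NAc libraries had 40 of 43 genes above 0, with a median of 0.28, where the genes above background had a median of 0.12. The test called 0 of 43 (0% of all genes). Hspb1, Dnaja1 (0.59 ± 0.20) and Bag3 (0.28 ± 0.13) stood at an unadjusted p under 0.05, where 1.11% of all genes did in that direction. DESeq2 gave 4 higher genes and 1 lower, and limma-voom 13 higher and 0 lower. Hsp90aa1 gave 0.70 ± 0.40, Hspa5 0.64 ± 0.34, Atf6 -0.12 ± 0.08 and the disulfide isomerase genes Pdia4 and Pdia6 0.44 ± 0.26 and 0.33 ± 0.24. The count of 3 was 25 without NAc resilient 1, the resilient library with the highest Hspa8 and Hspa5. With background cover as a covariate the median was 0.05. The comparisons with controls and with resilient mice share libraries and are no independent views of one another.

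**Figure D3:**
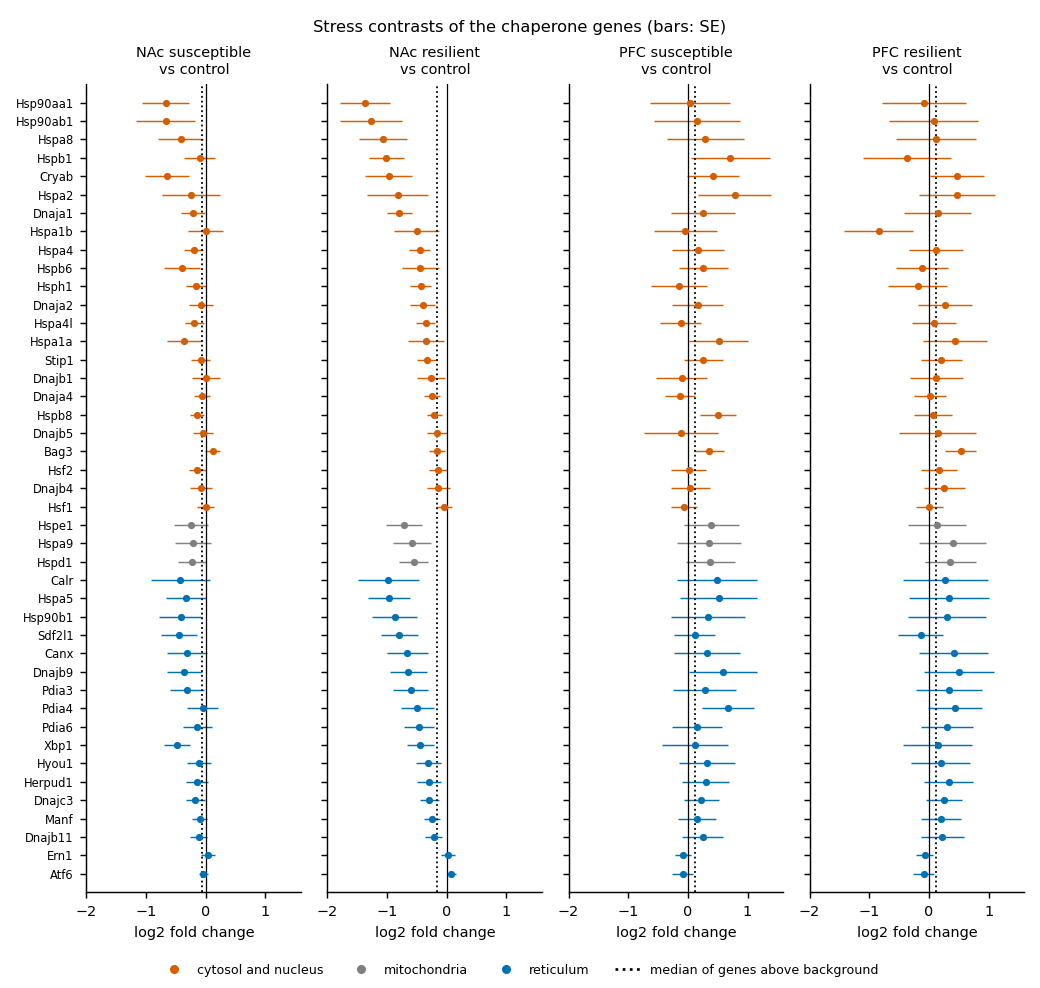
Log2 fold changes with SE of the 43 genes in 4 stress comparisons, coloured by compartment and ordered within it by the NAc resilient values. The dotted line is the median of genes above background. NAc resilient values fall left of it for most genes, and PFC values scatter around it with long error bars.

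In PFC no chaperone passed the test between groups. The test called 0 of 43 genes for susceptible and for resilient mice against controls and for one stressed group against the other (0% of 32167 genes in each). At an unadjusted p under 0.05 stood 0 genes in each, against 0.482%, 0.597% and 0.572% of all genes. In either direction, DESeq2 gave 0, 1 and 0 such genes and limma-voom gave 3, 1 and 1. Medians of the log2 fold changes were 0.26 for susceptible and 0.19 for resilient mice against controls and 0.03 between them. Hspa8 had CPM of 60.6, 116 and 422 as lowest, median and highest control and of 57.5, 150.4 and 718 in susceptible libraries. The 5 resilient libraries had 383, 457, 138, 44.2 and 82.8 CPM. In each group the top values are those of the libraries with low background cover, and the ranges of the remaining ones overlap. The log2 fold changes of Hspa5 were 0.52 ± 0.64 and 0.33 ± 0.67, and those of Hsp90aa1 0.04 ± 0.67 and -0.08 ± 0.70.

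Single libraries set the direction of these PFC medians. Without PFC susceptible 1, 35 of 43 genes were below 0 for susceptible against control mice and the median was -0.15, against 9 below 0 with it. Without PFC resilient 2, 35 of 43 were below 0 for resilient mice and the median was -0.10, against 8 with it. Between the stressed groups the median was -0.38 without PFC susceptible 1, -0.03 without PFC susceptible 2 and -0.09, -0.16 and -0.08 without PFC resilient 3, 4 and 5. Its highest value was 0.30, without PFC resilient 2. Without the 5 PFC libraries of low background cover the medians were 0.35 for susceptible against control mice, -0.05 for resilient against control mice and 0.35 between them. Bag3 gave 0.36 ± 0.25 in susceptible and 0.53 ± 0.26 in resilient mice, the latter with an unadjusted p of 0.0540 (adjusted p = 1.00, edgeR). Among the small heat shock proteins Hspb8 and Hspb1 gave 0.51 ± 0.30 and 0.71 ± 0.67 in susceptible mice, and Cryab 0.48 ± 0.45 in resilient mice. Susceptible against resilient mice, Hspb1 gave 1.08 ± 0.74, Hspb8 0.44 ± 0.32 and Hspb6 0.38 ± 0.45. Hspa2, an HSP70 best known from the testis, gave 0.79 ± 0.61 in susceptible mice. In the reticulum Pdia4 and Dnajb9 gave 0.67 ± 0.43 and 0.59 ± 0.56 in susceptible and 0.44 ± 0.45 and 0.51 ± 0.59 in resilient mice.

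Between regions, Dnajb5 had the smallest p of the 43 genes in control and in resilient mice, and it missed the threshold after adjustment in each. Dnajb5, a J-domain protein of the DNAJB class, ran from 11.5 over a median of 13.5 to 19.4 CPM in NAc controls and from 11.5 over 19.1 to 98.5 CPM in PFC controls. Susceptible mice showed 10.3, 12.8 and 19.4 CPM for NAc libraries and 13.3, 16.5 and 91.0 CPM for PFC ones. Resilient mice had 8.65, 10.6 and 17.4 CPM in NAc, and the 5 PFC libraries had 85.0, 59.0, 18.3, 10.3 and 14.4 CPM. All NAc libraries lie under 20 CPM, as do most PFC libraries, while 6 PFC libraries lie above 30 CPM. The log2 fold change of NAc against PFC was -1.27 ± 0.47 in controls, -1.19 ± 0.44 in susceptible and -1.59 ± 0.48 in resilient mice, with adjusted p of 0.490, 0.718 and 0.281 (edgeR). With background cover as a covariate the control value was -0.69 ± 0.16 at an adjusted p of 0.0288, in a fit that called 297 of all genes. Without the 6 libraries of low cover it was -0.21 ± 0.22 with an adjusted p of 0.890, and in resilient mice it was -0.09. Neuron markers were high in the same PFC libraries, with sums of 2137 and 4349 CPM in PFC control 1 and 2, 3524 CPM in PFC susceptible 1 and 3437 and 1946 CPM in PFC resilient 1 and 2, against 701 to 1482 CPM in NAc. As a list they took both directions between regions, with 4 of 8 lower in NAc in each condition. In controls 4 were lower and 2 higher at an unadjusted p under 0.05. Mural cell markers were high in those PFC libraries too, with sums of 683 and 687 CPM in PFC control 1 and 2, 1185 CPM in PFC susceptible 1 and 741 and 1269 CPM in PFC resilient 1 and 2. PFC susceptible 2, whose cover is above 40%, had 1005 CPM, and NAc libraries had 130 to 397 CPM. The part of both lists in the Dnajb5 difference was not tested.

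Across the set, the test called 0 of 43 genes between regions in each condition, against 0.00262% of 38171 genes in controls, 0.00262% in susceptible and 0% in resilient mice. By value NAc was lower for 32 of 43 genes in controls (median -0.13), 42 in susceptible (median -0.53) and 43 in resilient mice (median -0.79). Among genes above background, 56.6%, 71.6% and 72.6% were lower in NAc, with medians of -0.04, -0.21 and -0.32. At an unadjusted p under 0.05 and lower stood 1, 7 and 26 genes, against 3.96%, 4.42% and 11.0% of all genes. These shares are over all 38171 genes, of which 12771 lay above 2 times background, where 37 of the 43 members did. DESeq2 gave 1, 8 and 28 lower genes. With limma-voom 0, 2 and 0 stood lower, and 6 stood higher in controls. Hspb8 had the smallest p in susceptible mice, at 11.5, 12.1 and 13.6 CPM for NAc libraries but 10.9, 21.6 and 37.5 CPM for PFC ones. The NAc values are tight and the PFC values wide, with the lowest PFC library under the lowest NAc one, and the log2 fold change was -0.79 ± 0.21 (unadjusted p = 0.000505, adjusted p = 0.718). In resilient mice Hspa5 gave -1.59 ± 0.56, Dnajb9 -1.27 ± 0.49 and Dnaja2 -0.96 ± 0.35 (adjusted p = 0.307, 0.318 and 0.318). Hspa8, Dnaja1, Pdia3 and Pdia6 gave -1.45 ± 0.57, -1.08 ± 0.43, -1.16 ± 0.46 and -0.89 ± 0.36 there. In susceptible mice Hspa5 gave -1.11 ± 0.51, Hspb1 -1.08 ± 0.46, Dnajb9 -1.05 ± 0.45, Xbp1 -0.97 ± 0.40 and Hyou1, the large HSP70 of the reticulum, -0.72 ± 0.35. In controls Sdf2l1 gave 0.51 ± 0.34, but 0.14 without NAc control 3, which carries its high NAc mean. Also in controls, Hsph1 gave -0.53 ± 0.35, Dnajb1 -0.47 ± 0.34 and Atf6 -0.21 ± 0.12.

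Markers of cell types differed between regions as well, and their part in the chaperone values was not tested. Of 8 astrocyte markers, 2 were lower in NAc in controls (median 0.20), 7 in susceptible (median -0.69) and 8 in resilient mice (median -1.10), the last with 5 at an unadjusted p under 0.05. Of 4 mural markers, 4, 4 and 3 were lower, with medians of -0.40, -1.33 and -1.36, and 1 passed the edgeR test in susceptible mice (adjusted p = 0.0126). Oligodendrocyte markers were lower for 0, 4 and 8 of 8 genes (medians 0.98, -0.02 and -0.60). If consecutive numbers are regions of 1 animal, the libraries compared here are paired. With consecutive numbers as pairs the test called 0 of 43 genes, the medians were -0.06, -0.44 and -0.35, and 2, 9 and 1 genes stood at an unadjusted p under 0.05.

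These region differences went with the low-background PFC libraries. Without the 6 libraries under 40% cover, NAc was lower for 2 of 43 genes in controls (median 0.34), 26 in susceptible (median -0.04) and 17 in resilient mice (median 0.05). With background cover as a covariate it was 10, 22 and 23 genes, and with limma-voom, which weighs libraries by their noise, 4, 22 and 36. Without PFC control 2 alone, 8 of 43 were lower in controls (median 0.17), and without PFC control 1 alone it was 17 (median 0.05). The count of 1 in controls was 0 without PFC control 2 and 2 without NAc control 2. The count of 7 in susceptible mice was 1 without PFC susceptible 1, 3 without PFC susceptible 2, 15 without PFC susceptible 3 and 12 without PFC susceptible 5. The count of 26 in resilient mice was 1 without PFC resilient 2, 6 without PFC resilient 1, and 14, 15, 11 and 16 without NAc resilient 3, 4, 5 and 7.

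The stress effects were also compared between regions with an interaction term, which called 0 of 43 genes for either stressed group (0% of 38171 genes). For resilient mice the effect was lower in NAc by value for 40 of 43 genes, with a median difference of -0.66 against -0.26 in genes above background. Cryab gave -1.42 ± 0.61 and Bag3 -0.67 ± 0.28 (unadjusted p = 0.0258 and 0.0209, adjusted p = 0.849), the only 2 genes at an unadjusted p under 0.05, where 2.10% of all genes stood lower. That count was 16 without PFC control 2, 10 without NAc resilient 1, 6 without PFC resilient 4, 1 without NAc control 4 or 6 or PFC resilient 1, and 0 without PFC resilient 2. DESeq2 gave 3 lower genes and limma-voom 6. Hspa5 gave -1.30 ± 0.77, Dnajb9 -1.14 ± 0.67, Pdia4 -0.93 ± 0.53 and Hspd1 -0.92 ± 0.49. For susceptible mice 35 of 43 were lower with a median of -0.46, and Hspb8 alone stood at an unadjusted p under 0.05 (-0.63 ± 0.30, unadjusted p = 0.0424, adjusted p = 1.00, edgeR), against 0.597% of all genes. DESeq2 gave 1 lower gene and limma-voom 3, and the count was 0 to 2 over the libraries left out. Without PFC susceptible 1, 24 of 43 were lower and the median was -0.04. Without the libraries under 40% cover, 38 were lower for susceptible (median -0.50) and 36 for resilient mice (median -0.36), of which 4 and 0 stood at an unadjusted p under 0.05. In the same interaction, 8 of 8 astrocyte and 8 of 8 oligodendrocyte markers were lower for resilient mice (medians -1.40 and -1.49), with 4 and 7 at an unadjusted p under 0.05. For susceptible mice 8 of 8 of each list were lower as well (median -0.92 for each), with 0 at that p. No marker of either list passed the test, and their part in the chaperone interaction was not tested. With consecutive numbers as pairs the chaperone medians were -0.41 for susceptible and -0.34 for resilient mice. At an unadjusted p under 0.05 stood 3 and 0 genes there, and 0 were called.

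Of 4 chaperones set against background cover within the groups, Hspa8, Hsp90aa1 and Hspa5 fell with rising cover in both regions. After each group's mean was removed, Pearson's r between log2 CPM and background cover over the 22 NAc libraries was -0.70 for Hspa8, -0.71 for Hsp90aa1 and -0.72 for Hspa5 (Spearman's rho -0.60, -0.60 and -0.64). The permutation p adjusted over the 8 relations computed was 0.000547, 0.000256 and 0.000256 for r and 0.00540, 0.00540 and 0.00316 for rho. Over the 17 PFC libraries r was -0.95 for each of these genes (rho -0.92, -0.85 and -0.92), with an adjusted permutation p of 2.67e-05 for r from an unadjusted 1e-05, the smallest that 100000 permutations can give, and adjusted p of 4e-05, 8e-05 and 4e-05 for rho. Without the 2 libraries farthest from the median cover r was -0.64, -0.62 and -0.70 in NAc and -0.94, -0.93 and -0.94 in PFC. Over the 12 PFC libraries of at least 40% cover it was -0.87, -0.76 and -0.87. Background cover is scaled to the library total, and CPM to that total times the TMM factor of edgeR, so the 2 quantities share the total. More cover over silent genes leaves a smaller share of the counts for genes well above background. A negative r is thus built into the measure for such genes. No gene outside the set was set against cover, so these p-values show nothing particular to chaperones. On the log2(FPKM + 0.5) scale, which uses the plain total and so shares it too, r was -0.71, -0.71 and -0.73 in NAc. In PFC it was -0.937, -0.939 and -0.935. Hspa1a gave r of 0.28 in NAc (rho 0.23, adjusted p = 0.213 and 0.292) and -0.50 in PFC (rho -0.56, adjusted p = 0.0481 and 0.0229), and over the 12 PFC libraries r was -0.07, so the PFC relation of Hspa1a rests on the low-cover libraries.

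**Figure D4:**
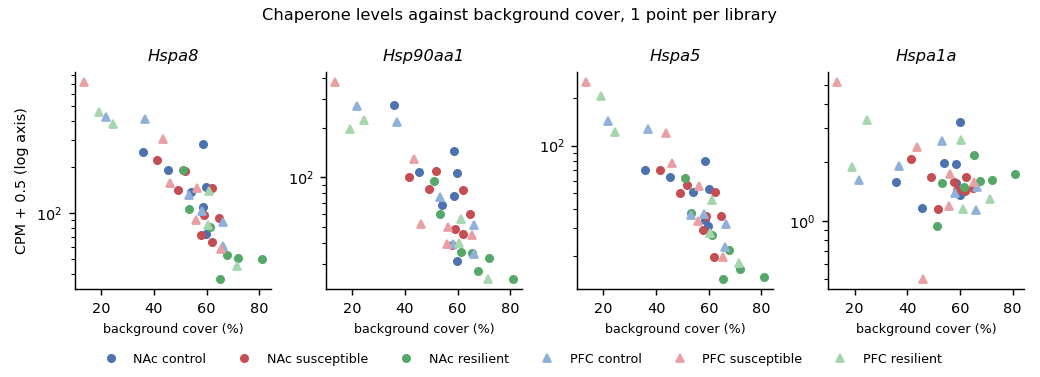
CPM + 0.5 (log axis) of 4 chaperone genes against background cover in percent, 1 point per library with circles for NAc and triangles for PFC. Hspa8, Hsp90aa1 and Hspa5 fall from left to right in both regions, the leftmost points being PFC libraries, while Hspa1a stays low.

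In some comparisons the size of a difference ran with how far the gene lay above background. Across the 43 genes, Spearman's rho between mean FPKM over background and the log2 fold change was -0.73 for resilient against control mice in NAc and -0.80 for NAc against PFC in resilient mice. In NAc it was also -0.58 for susceptible against control and 0.67 for susceptible against resilient mice, and for NAc against PFC in susceptible mice it was -0.61. In PFC it was lower, at 0.39 for susceptible and 0.33 for resilient mice against controls and 0.20 between them, and for NAc against PFC in controls it was 0.07. The interactions gave -0.59 for susceptible and -0.78 for resilient mice. These are descriptions across genes of the same libraries, and genes are not independent replicates. Spread between libraries of 1 group also differed by gene. The pooled SD of log2 CPM within NAc groups was 0.90 for Hspa2, 0.90 for Hsp90ab1 and 0.89 for Calr, and 0.09 for Atf6. In PFC it was 1.44 for Hsp90ab1, 1.39 for Calr and 1.32 for Hsp90aa1, and 0.13 for Ern1. Most members spread more in PFC than in NAc. Dnajb5 had an SD of 0.31 in NAc and 1.16 in PFC, and Hspb1 had 0.39 and 1.18. Sdf2l1 (0.65 and 0.54) and Ern1 (0.28 and 0.13) went the other way.

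**Figure D5:**
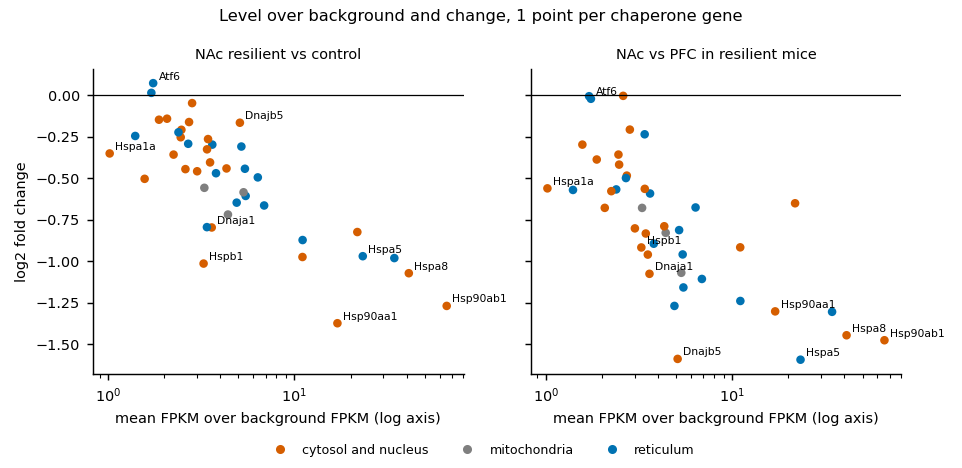
Log2 fold change of each of the 43 genes against its mean FPKM over background (log axis) for resilient against control mice in NAc (left) and NAc against PFC in resilient mice (right). The long genes near background (Atf6, Ern1) lie near 0 and the abundant ones (Hsp90ab1, Hspa8, Hspa5) lie low, with a rho of -0.73 and -0.80.

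The balance of cytosolic and reticulum chaperones varied less than either set. The mean log2 CPM of the 23 cytosolic genes minus that of the 17 reticulum genes was -0.72 ± 0.16 (SD, n = 7) in NAc controls, -0.68 ± 0.08 (n = 8) in susceptible and -0.72 ± 0.12 (n = 7) in resilient mice. In PFC it was -0.66 ± 0.09 (n = 6), -0.75 ± 0.18 (n = 6) and -0.76 ± 0.09 (n = 5). The groups overlap in both regions. The pooled SD of the cytosolic mean alone was 0.30 in NAc and 0.74 in PFC, and of the reticulum mean 0.36 and 0.77, against 0.12 and 0.13 for the balance. What moves both means alike drops out of their difference, and no other pair of gene sets was compared.

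Promoters were read to see what the members share in sequence. RefSeq windows of GRCm38.p6, from 250 bases before to 50 after the start, were at hand for 34 of the 43 genes and 32544 windows in all, and both strands were searched. The 9 members without a window were Hsp90ab1, Hspa8, Hsp90aa1, Cryab, Hsf1, Hspa9, Hyou1, Atf6 and Manf, so abundant cytosolic genes are missing from the shares below. The endoplasmic reticulum stress element, CCAAT and CCACG parted by 9 bases, through which ATF6 with NF-Y acts, was in 6 of 14 reticulum windows (Calr, Hspa5, Hsp90b1, Canx, Pdia6 and Dnajc3), in 0 of 18 cytosolic ones and in 0.120% of all windows. The second such element, ATTGG and CCACG parted by 1 base, was in Herpud1 and Dnajb11 and in 0.0369% of all windows. Heat shock elements of 3 units (GAA and TTC in turn, each parted by 2 bases, starting with either) were in Hspe1 and Hsph1 and in 0.608% of all windows. Those of 2 units (GAANNTTC or TTCNNGAA, which lie inside the longer ones) were in 7 of 18 cytosolic windows, in Hspe1, in 0 of 14 reticulum windows and in 15.1% of all windows. The cAMP response element TGACGTCA, the site of CREB, was in 0 of 34 windows and in 1.80% of all, and the XBP1 element TGACGTGG was in 0 of 34 and in 0.682% of all. The 250 bases before the start are shown for 4 genes picked for low values in resilient NAc, 5′ to 3′ on the strand of the gene. Hspa5 and Hsp90b1 of the reticulum are set beside the cytosolic Hspb1 and the mitochondrial Hspe1, with the matches in capitals. Hspa5 (chr2:34771840-34772089, plus strand) has its stress element from -65 on, counted from the start, and Hsp90b1 (chr10:86705445-86705694, minus strand) has elements from -212 and -107. Hspb1 (chr5:135887669-135887918, plus strand) has 2-unit heat shock elements from -117 and -97, and Hspe1 (chr1:55087898-55088147, plus strand) has overlapping elements from -89.
Hspa5: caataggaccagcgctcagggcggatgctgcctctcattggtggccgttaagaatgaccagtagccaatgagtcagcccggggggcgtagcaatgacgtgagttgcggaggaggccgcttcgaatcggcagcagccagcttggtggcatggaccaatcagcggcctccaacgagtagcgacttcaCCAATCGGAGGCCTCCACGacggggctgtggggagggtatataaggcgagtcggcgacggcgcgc
Hsp90b1: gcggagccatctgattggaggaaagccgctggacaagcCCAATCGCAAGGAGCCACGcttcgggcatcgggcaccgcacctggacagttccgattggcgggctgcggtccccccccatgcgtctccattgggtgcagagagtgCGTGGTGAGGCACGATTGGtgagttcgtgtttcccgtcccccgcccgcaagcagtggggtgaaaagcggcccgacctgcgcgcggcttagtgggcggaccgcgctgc
Hspb1: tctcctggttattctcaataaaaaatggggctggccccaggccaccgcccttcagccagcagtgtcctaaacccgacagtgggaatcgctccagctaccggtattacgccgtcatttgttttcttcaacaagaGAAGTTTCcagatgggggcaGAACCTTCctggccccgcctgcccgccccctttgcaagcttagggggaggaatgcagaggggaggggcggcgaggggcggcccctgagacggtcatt
Hspe1: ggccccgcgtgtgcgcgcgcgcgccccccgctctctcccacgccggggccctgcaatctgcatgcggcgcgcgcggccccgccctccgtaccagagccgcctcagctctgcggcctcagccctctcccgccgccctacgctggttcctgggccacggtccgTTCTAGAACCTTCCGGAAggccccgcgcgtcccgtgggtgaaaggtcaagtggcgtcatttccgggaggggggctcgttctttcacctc
In NAc these genes were all below 0 by value, and Hspa5 and Hsp90b1 stood at -0.97 and -0.87 and Hspb1 and Hspe1 at -1.01 and -0.72 for resilient against control mice. They were picked for these values, and 41 of 43 members were below 0 in that comparison. Bag3 and Hspb8 also have a 2-unit heat shock element, and they differed less. A match is a description of letters and says nothing on whether a factor bound there.

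Other genes of protein folding, taken from 4 lists, lay by value mostly below 0 in resilient NAc, as did 75.6% of all genes above background, and none passed the test. For resilient against control mice in NAc, 8 of 8 subunits of the TRiC chaperonin, which folds actin and tubulin, were below 0 with a median of -0.42, and Tcp1 gave -0.68 ± 0.32 and Cct8 -0.45 ± 0.20. Of 16 co-chaperones of HSP90 and HSP70, 15 were below 0 (median -0.31), with St13, an HSP70 cofactor, at -0.56 ± 0.22. The exception was Fkbp5, the glucocorticoid-induced immunophilin that holds steroid receptors in the HSP90 complex, at 0.27 ± 0.10 (unadjusted p = 0.0110, adjusted p = 0.756). Of 17 further folding and degradation genes of the reticulum, 13 were below 0 (median -0.16), with Sel1l and Syvn1 of the degradation channel at -0.54 ± 0.21 and -0.52 ± 0.23. Of 12 entries for kinases and factors of the unfolded protein response (11 genes, since Ddit3 is counted under 2 identifiers), 8 were below 0 (median -0.15), with Ppp1r15a, the phosphatase subunit GADD34, at -0.56 ± 0.24. At an unadjusted p under 0.05 and lower stood 2 of the TRiC genes, 4 of the co-chaperones, 2 of the reticulum genes and 1 of the response factors, where 4.31% of all genes tested stood lower at that p. The edgeR test called 0 genes of these lists in each of the 11 comparisons.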

How the data were processed

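The 39 libraries were made from 500 pg of RNA of sorted astrocytes with a stranded total RNA kit for low input, per the labels' protocols. The authors deposited raw read counts per gene and FPKM values per library. The counts were made with featureCounts on mm10, per the submitters' processing notes, and their strand setting is not given in the sources used here. In 54229 of 54229 genes compared, the length implied by the deposited FPKM equals the whole gene span of GENCODE M21 within a relative 1e-06, so intronic reads count.

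Members were matched by identifier, with the version removed (3 of 43 differ in version). Genes were tested in R 4.3.3 with edgeR 4.0.16 (TMM scaling, filterByExpr, robust quasi-likelihood F test, Benjamini-Hochberg adjustment over all genes tested), in 1 fit per region for stress and 1 fit of all 39 libraries for regions and interactions. CPM use the TMM scaling of the 39-library fit. DESeq2 1.42.0, limma 3.58.1 (voom with library weights, and trend on log2(FPKM + 0.5)), RLE scaling, no filter, a replicate block, consecutive sample numbers as pairs, background cover as a covariate and leaving out libraries were alternatives. Leaving out the libraries under 40% cover was chosen after seeing the data. The fitting script was tested on simulated counts. No 2 libraries had identical values. P-values measure only the spread between libraries as labelled, and comparisons within a region share libraries.

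The named genes are those with the 4 smallest p among cytosolic and mitochondrial members and the 4 smallest among reticulum members of each comparison, with group levels for a fixed set of 13, and at most 2 genes per other list; the further members named beside them were chosen after their values were seen. The members and lists were chosen with earlier results of these data known. Group values of 4 to 10 libraries were screened for a single library apart from the others (0 of 96 values). The screen covered the fixed set of 13 genes and the compartment means, not all 43 members. Among members outside it, NAc control 3 lay far above the other NAc controls for Sdf2l1 and Hspb6. Sdf2l1 had 19.4 CPM there against at most 4.10 CPM, and Hspb6 had 17.2 CPM against at most 4.73 CPM. Of promoters, 34 of 43 members matched a RefSeq window, and the window whose start lies nearest the GENCODE start was used.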

Additional observations from a re-analysis of the deposited data

How the results depend on the processing

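Over the alternatives run, the 43 chaperones gave 0 calls in every comparison but NAc against PFC in control mice, where 1 gene (Dnajb5) was called with background cover as a covariate. With background cover as a covariate and without the libraries under 40% cover, the reticulum median for NAc against PFC in resilient mice was 0.028 and 0.086 rather than -0.81. On the log2(FPKM + 0.5) scale the relation of Hspa1a to background cover in PFC gave r of -0.32.

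The genes listed next are those named by rule for each comparison, and over all 43 more turned between regions, as the counts of lower genes in the report show. With limma-voom the direction turned for resilient against control mice in PFC in Hspa1b (0.30) and Herpud1 (-0.17), between stressed PFC groups in Pdia6 (0.14), for NAc against PFC in controls in Hsph1 (0.059), Hspa1b (0.14), Dnajb1 (0.043), Ern1 (0.020) and Hyou1 (0.19), and in susceptible mice in Hspa4 (0.12). Without the libraries under 40% cover it turned in the same order of comparisons in Hspa1b (0.21), Dnajb9 (-0.16) and Herpud1 (-0.16), in Pdia6 (0.33), and in controls in Hsph1 (0.11), Hspa1b (0.30), Dnajb1 (0.12), Atf6 (0.0047), Ern1 (0.013) and Hyou1 (0.35), and in resilient mice in Hspa5 (0.014) and Dnajb9 (0.067). Among those named genes, the covariate turned Hyou1 in controls (0.015). The cause was not tested.

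Leaving out 1 library at a time, values ran for susceptible against control mice in PFC from -0.093 to 0.90 for Hspa5 and from -0.049 to 0.39 for Dnajc3, and for resilient against control mice from -0.029 to 0.67 for Pdia4, from -0.15 to 0.79 for Dnajb9 and from -0.0097 to 0.59 for Herpud1. Between the stressed PFC groups they ran from -0.19 to 0.70 for Pdia4, from -0.37 to 0.91 for Calr and from -0.53 to 0.22 for Pdia6, and for NAc against PFC in controls from -0.44 to 0.11 for Hyou1.

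The replicate block changed no call. For resilient against control mice in NAc it gave a median of -0.48 and 26 genes at an unadjusted p under 0.05, for susceptible against resilient mice 9, and for the resilient interaction 16. Between regions it gave 2 in controls, 1 in susceptible and 17 in resilient mice (medians 0.07, -0.18 and -0.57). In PFC the block gave 2 for susceptible and 1 for resilient mice against controls and 1 between them (medians 0.16, 0.08 and 0.07). The labels do not say what a number shares. In PFC the deviations of same-numbered libraries correlated above 0.1 in 5 of 6 control and susceptible pairs (lowest 0.060), 5 of 5 control and resilient pairs (lowest 0.26) and 5 of 5 susceptible and resilient pairs (lowest 0.11), and above a mean log2 CPM of 3 in 6 of 6, 5 of 5 and 5 of 5. The PFC libraries under 40% cover are all numbered 1 or 2, and their part in these correlations was not tested. In NAc pairs took both signs. Of 16 pairs of consecutive numbers, 9 correlated above 0.1. Few counts limit Hspb1, Hspa1a and Hspa1b, with median counts of 24, 13 and 22 per library.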
